A study of Mus musculus with 22 samples.

Results

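The 42 genes described here serve cell proliferation: 5 cyclins and kinases that act in G1 (Ccnd1, Cdk4, Ccne1, Ccne2 and Cdk2), 12 genes of DNA replication and 25 genes of mitosis. Each gene was followed through the probe set that maps to its symbol alone, and through the brightest one where there were several. Of the 42 genes 41 had such a probe set, out of 19937 genes on the array, and Ccnb1 had none and was not analysed here. Levels are log2 intensities on 22 Affymetrix arrays of microglia, the brain's own macrophages. They were sorted from digested mouse brain by the surface proteins CD11b, CD45 and F4/80 together, a gate that other brain macrophages and some blood cells could also pass.

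The mice had either of these genotypes: wild type (WT) and Trem2-/- (KO), which lacks Trem2, a lipid-sensing receptor of myeloid cells. WT control and KO control (2 arrays each) had received no additive. WT cuprizone and KO cuprizone (3 arrays each) had been fed cuprizone, a copper-binding toxin under which oligodendrocytes die and myelin is lost, at 0.2% of the feed. WT Covi-Ox (3 arrays) had been fed Covi-Ox, mixed tocopherols of the vitamin E family supplied here with extra alpha tocopherol, at 0.1%, and WT both (3 arrays) had been fed both additives, with Covi-Ox started before cuprizone. All treated groups were labelled as 4 weeks of treatment. For 6 KO arrays the title and the other fields contradict each other: set A is named for both additives in its titles and for Covi-Ox alone elsewhere, set B the other way round, and neither reading was chosen. Strain, sex, age and the number of animals behind an array are not in the labels, and a p-value here measures the spread between these samples, which may be technical.

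A cell that divides first passes G1, in which D-type cyclins with Cdk4 and E-type cyclins with Cdk2 release E2F transcription factors from the retinoblastoma proteins. It then copies its DNA with the Mcm2 to Mcm7 helicase, which Cdc6 helps to load, the clamp Pcna, and enzymes that make nucleotides. It next builds the mitotic machinery of cyclins A and B with Cdk1, the Aurora and Polo kinases, spindle motors, kinetochore proteins and the checkpoint proteins Bub1 and Bub1b. Microglia divide rarely in the healthy brain and are known to multiply when myelin is damaged.

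Arrays were alike in overall level, with medians from 36.1 to 38.6 intensity units, or 5.17 to 5.27 on the log2 scale. Trem2 was 14.8-fold lower in KO control than in WT control (adjusted p = 9.7e-14, limma with Benjamini-Hochberg adjustment over all genes). All 9 measured microglial markers lay above the array median on their mean. So did all 6 border macrophage markers, 5 of 7 neutrophil markers and 2 of 4 monocyte markers. Below it lay 4 of 5 oligodendrocyte-lineage markers (Mog, Pdgfra, Cspg4 and Olig1, but not Mbp, a myelin gene at 6.01 to 6.70), all 4 astrocyte markers and 4 of 5 T and NK cell markers. Neutrophil markers differed most between groups, with group means from 4.45 in WT Covi-Ox to 7.29 in WT control over 7 genes. WT cuprizone 3, KO cuprizone 2 and KO cuprizone 3 stood apart in 12 immediate-early genes, which respond to cell dissociation, with means of 9.45, 9.94 and 10.00 against 10.93 to 11.19 on the other arrays. These are bulk values, in which fewer cells of a type and less RNA per cell cannot be told apart.

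Many of the proliferation genes were dim. Against the median of each array 11 of the 41 were above it on every array (6 replication, 3 G1 and 2 mitosis genes), 16 were above it on some arrays, and 14 were below it on every array. Of the 24 measured mitosis genes 10 were below the median on every array, among them Bub1, Cenpe, Kif11, Prc1 and Cenpf, and 2, Aurka and Stmn1, were above it throughout. RMA compresses differences near background, so fold changes of the dim genes are not exact. Mitosis genes also varied most. The range of a gene over the 22 arrays had a median of 1.16 (log2) for mitosis, 0.85 for replication and 0.78 for G1 genes.

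Microglia of WT mice given cuprizone with Covi-Ox had higher levels of mitosis genes than those given Covi-Ox alone. Top2a, which untangles chromosomes before they separate, Stmn1, which takes microtubules apart, Cdk1, the kinase that starts mitosis, and Ccnb2, one of its cyclins, rose between 1.74-fold and 2.26-fold. So did, to 1.56-fold and 1.82-fold, the spindle checkpoint kinases Bub1b and Bub1. Among the replication genes Mcm6 alone passed the test, at 1.51-fold. In all 9 of the 41 genes rose (8 of 24 mitosis, 1 of 12 replication and 0 of 5 G1 genes) and none fell at an adjusted p under 0.05 in limma, where 2.45% of all 19937 genes rose, 1.42% fell and 3.87% did either.

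Top2a was at 5.50, 5.86 and 5.46 on the 3 WT both arrays and at 4.29, 4.37 and 4.63 on the 3 WT Covi-Ox arrays. The groups did not overlap, and the difference was 1.18 ± 0.25 (log2, SE, n = 3 and 3; adjusted p = 0.00817, limma). WT control was at 4.83 and 4.83 and WT cuprizone at 5.18, 4.87 and 6.20. The KO arrays lay between 4.89 and 5.83 with a median of 5.20, above all 3 WT Covi-Ox arrays and overlapping WT both. A second probe set that maps to Top2a alone, dimmer on its mean, gave a smaller separation of the same direction: it was at 5.03, 4.90 and 5.05 in WT both and 4.83, 4.83 and 4.85 in WT Covi-Ox. In WT cuprizone it went otherwise, at 5.42, 4.77 and 3.55. The pair disagreed most on WT cuprizone 3, so the level of Top2a there is uncertain. With the mean of both probe sets the difference between WT both and WT Covi-Ox was 0.67 (adjusted p = 0.0104, limma).

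Stmn1 was at 8.15, 8.37 and 8.27 in WT both and at 7.18, 7.23 and 7.37 in WT Covi-Ox, without overlap. The difference was 1.01 ± 0.17 (adjusted p = 0.00118, limma, n = 3 and 3). WT control was at 7.67 and 7.87, so the Covi-Ox arrays were below both control arrays. WT cuprizone was at 7.92, 8.35 and 8.72, above both controls, and the KO arrays ran from 7.28 to 8.09. Stmn1 is also expressed outside the cell cycle.

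Cdk1 stood at 6.03, 6.36 and 5.86 in WT both, above 5.35, 4.95 and 5.06 in WT Covi-Ox, a difference of 0.96 ± 0.26 (adjusted p = 0.0419, limma). Its values were 5.21 and 4.95 in WT control, 5.07, 5.34 and 6.69 in WT cuprizone, 5.16 and 5.20 in KO control and 5.36, 5.38 and 5.62 in KO cuprizone. All 3 WT both arrays were thus above all 5 WT arrays without cuprizone and above KO control and KO cuprizone. Ccnb2 was at 5.75, 5.93 and 6.20 in WT both and at 5.08, 5.29 and 5.11 in WT Covi-Ox, without overlap, and differed by 0.80 ± 0.22 (adjusted p = 0.0418, limma). It was at 5.08 and 5.11 in WT control, 5.36, 5.56 and 6.57 in WT cuprizone, 5.32 and 5.27 in KO control and 5.92, 5.53 and 5.42 in KO cuprizone. Ccna2, the cyclin that serves both S phase and mitosis, was at 6.06, 5.96 and 5.74 against 4.97, 4.71 and 5.05, without overlap, but its adjusted p of 0.0619 (limma) missed the threshold.

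Birc5 encodes survivin, which works with Aurora B at the centromere and also curbs apoptosis. It was at 5.40, 5.64 and 5.70 in WT both and at 4.86, 4.81 and 4.93 in WT Covi-Ox. The difference was 0.71 ± 0.19 (adjusted p = 0.0353, limma), and the groups did not overlap. KO control was at 4.93 and 4.89 and KO cuprizone at 5.31, 5.08 and 5.19, all below the WT both arrays. Cenpe, a kinetochore motor below the median on every array, was at 4.01, 4.09 and 3.93 in WT both and at 3.19, 3.59 and 3.08 in WT Covi-Ox (difference 0.72 ± 0.13, adjusted p = 0.00219, limma). WT both and WT Covi-Ox did not overlap, while WT cuprizone, at 3.94, 3.48 and 3.82, overlapped WT control, at 3.72 and 3.58.

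The spindle checkpoint kinases were dim as well. Bub1b was at 5.09, 5.28 and 4.83 in WT both and at 4.43, 4.54 and 4.32 in WT Covi-Ox (difference 0.64 ± 0.14, adjusted p = 0.00781, limma). WT control, at 4.72 and 4.59, was above all 3 WT cuprizone arrays, at 4.52, 4.35 and 4.55, so Bub1b was not high in WT cuprizone. Bub1 was at 3.94, 4.51 and 3.78 in WT both and at 3.17, 2.84 and 3.62 in WT Covi-Ox (difference 0.86 ± 0.24, adjusted p = 0.0467, limma). Mki67, the gene of the Ki-67 proliferation marker, was at 4.86, 5.11 and 4.87 in WT both and at 4.45, 4.48 and 4.51 in WT Covi-Ox. These did not overlap, yet the difference of 0.47 ± 0.13 had an adjusted p of 0.0508 (limma) and missed the threshold, and every Mki67 value lay below its array's median.

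Ckap2l, a spindle protein, reached 6.12, 6.39 and 6.05 in WT both against 5.62, 5.93 and 5.22 in WT Covi-Ox, without passing the test (difference 0.59 ± 0.21, adjusted p = 0.148, limma). The groups did not overlap. The other 13 mitosis genes, Aurka, Aurkb, Plk1, Cdc20, Kif11, Kif20a, Kif23, Nusap1, Prc1, Cenpf, Cdca8, Cdca3 and Tpx2, did not pass the test and differed by -0.03 (Kif20a) to 0.55 (Cdca3). In all 23 of the 24 mitosis genes had a difference above 0, beside 45.7% of all genes. Without overlap of groups 13 of 24 mitosis genes were higher, against 10.2% of all genes.

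**Figure D1:**
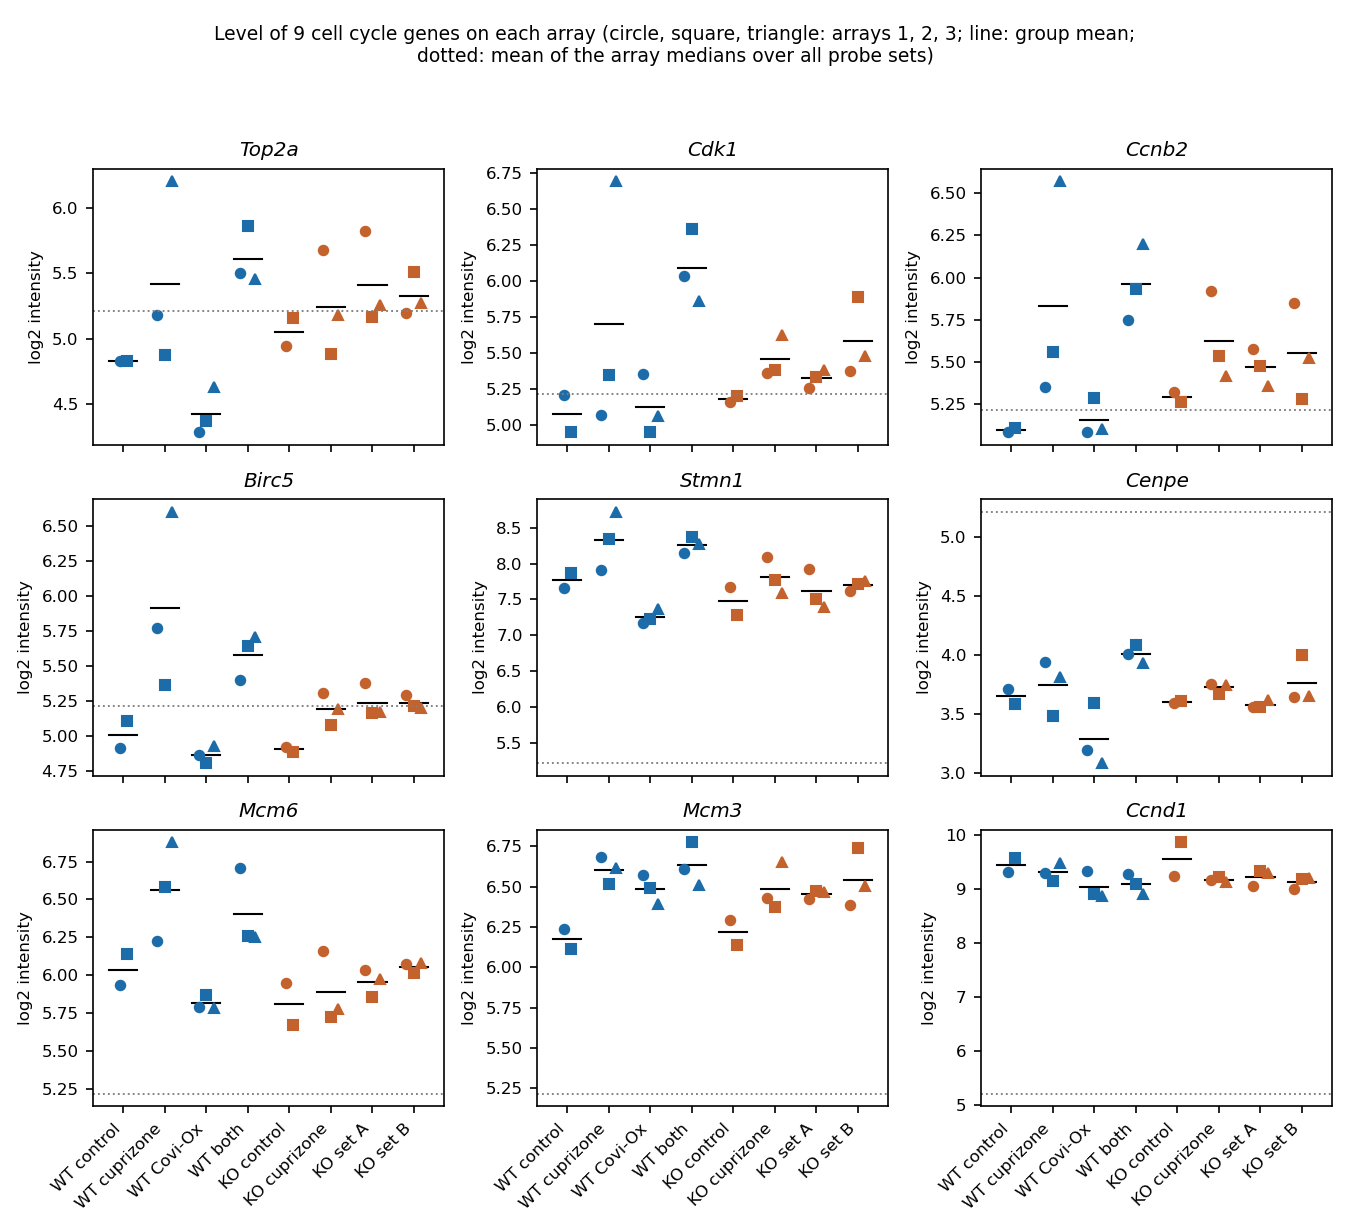
Level (log2 intensity, y axis) of 9 proliferation genes on each array of the 8 groups (x axis), with the group mean as a line and the mean of the array medians dotted. For Top2a, Cdk1, Ccnb2, Birc5, Stmn1, Cenpe and Mcm6 the 3 WT both arrays lie above the 3 WT Covi-Ox arrays, and the third WT cuprizone array stands above the other two in Top2a, Cdk1, Ccnb2, Birc5, Stmn1 and Mcm6.

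The replication genes moved less. Mcm6, a helicase subunit, was at 6.71, 6.26 and 6.25 in WT both and at 5.79, 5.87 and 5.78 in WT Covi-Ox, without overlap (difference 0.59 ± 0.15, adjusted p = 0.0297, limma). It was at 5.93 and 6.14 in WT control and 6.22, 6.58 and 6.88 in WT cuprizone, so every WT array with cuprizone was above every WT array without it. Of the other helicase subunits Mcm2, Mcm3, Mcm4, Mcm5 and Mcm7 differed by 0.11 (Mcm7) to 0.17 (Mcm2) and did not pass. Mcm3 was at 6.61, 6.77 and 6.51 in WT both and 6.57, 6.49 and 6.39 in WT Covi-Ox, and these groups overlapped. Pcna was high throughout, between 9.85 and 10.30 over the 22 arrays. The nucleotide enzymes Rrm1, Rrm2 and Tyms, Cdc6 and Uhrf1, which carries methylation over to new DNA, differed by -0.03 (Uhrf1) to 0.41 (Rrm2) without passing.

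The median difference between WT both and WT Covi-Ox was 0.47 (log2) over the 24 mitosis genes, 0.16 over the 12 replication genes and -0.04 over the 5 G1 genes, beside -0.02 over all genes. The mean over mitosis genes minus the mean over replication genes of the same array, whose zero has no meaning of its own, was -0.73, -0.70 and -0.74 in WT both. It was -1.07, -1.10 and -1.02 in WT Covi-Ox, so the mitosis genes stood higher relative to the replication genes on every WT both array. The values were -1.01 and -1.09 in WT control and -0.94, -1.12 and -0.65 in WT cuprizone, where 1 array of 3 was above WT both. The 11 KO arrays ran from -0.98 to -0.72, with group means of -0.87 in KO control, -0.85 in KO cuprizone, -0.85 in set A and -0.95 in set B. These class means are descriptions and were not tested.

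**Figure D2:**
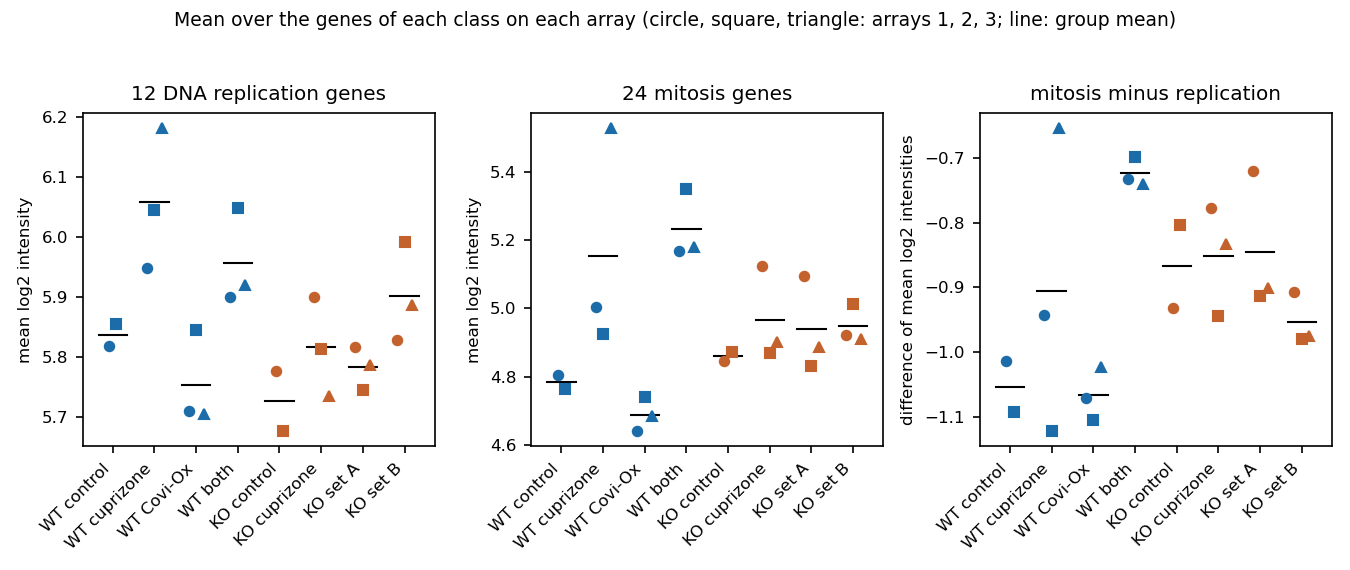
Mean log2 intensity over 12 replication genes and over 24 mitosis genes, and the difference of these means (y axes), on each array of the 8 groups (x axis), with the group mean as a line. Mitosis means were 5.17 to 5.35 in WT both and 4.64 to 4.74 in WT Covi-Ox, and the third WT cuprizone array was highest of all at 5.53.

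Promoters of the mitosis and replication genes differed in 2 of 3 motifs. The RefSeq promoter table (GRCm38.p6, 250 bases before to 50 after each start) held 34 of the 42 genes, with 37 promoters, and not Tpx2, Stmn1, Ccna2, Aurkb, Mcm4, Ccne2, Kif20a or Ccnd1. Searched on both strands were CCAAT (the CCAAT box), TTTGAA or TTTAAA (the cell cycle genes homology region, CHR, which reads the same on both strands in its second form), and TTCCCGC or else TTGGCGC or else TTCGCGC or else TTGCCGC (letters of E2F sites, which can overlap each other on opposite strands). CCAAT stood in 90.5% of 21 mitosis promoters and 84.6% of 13 replication promoters, against 37.4% of all 32851 promoters. CHR letters stood in 90.5% of mitosis and 30.8% of replication promoters, against 27.6% of all. E2F letters stood in 14.3% of mitosis and 76.9% of replication promoters, against 9.57% of all. Within the 200 bases before the start alone CHR letters stood in 52.4% of mitosis and 7.69% of replication promoters, against 20% of all.

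The 120 bases before the start of 6 genes that passed a test in WT microglia are given here, with the motifs in capitals (either strand), 5′ to 3′ in the direction of transcription.
Top2a: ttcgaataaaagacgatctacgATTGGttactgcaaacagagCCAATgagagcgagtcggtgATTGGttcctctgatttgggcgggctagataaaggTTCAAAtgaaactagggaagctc
Cdk1: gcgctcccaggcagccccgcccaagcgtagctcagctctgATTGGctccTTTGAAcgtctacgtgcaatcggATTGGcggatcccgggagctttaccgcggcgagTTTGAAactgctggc
Ccnb2: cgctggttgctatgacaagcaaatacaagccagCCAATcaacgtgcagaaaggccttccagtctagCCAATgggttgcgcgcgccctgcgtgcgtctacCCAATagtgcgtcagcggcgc
Birc5: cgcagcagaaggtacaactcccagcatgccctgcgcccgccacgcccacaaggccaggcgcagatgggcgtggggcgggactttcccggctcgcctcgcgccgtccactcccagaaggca
Mcm6: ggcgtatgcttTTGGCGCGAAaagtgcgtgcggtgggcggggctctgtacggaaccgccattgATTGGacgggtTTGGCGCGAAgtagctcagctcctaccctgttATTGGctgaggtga
Mcm3: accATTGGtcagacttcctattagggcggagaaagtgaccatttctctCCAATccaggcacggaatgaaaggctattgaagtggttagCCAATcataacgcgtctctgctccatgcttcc
Top2a at chr11:99024190-99024309 (minus strand) holds 3 CCAAT boxes and 1 CHR, Cdk1 at chr10:69352913-69353032 (minus strand) holds 2 and 2, and Ccnb2 at chr9:70421555-70421674 (minus strand) holds 3 and 0, its CHR letters lying outside this window. Birc5 at chr11:117849117-117849236 (plus strand) has none of the motifs here, its CHR letters lying further upstream. Mcm6 at chr1:128359706-128359825 (minus strand) holds 2 CCAAT boxes and 2 stretches in which E2F letters on both strands overlap, while Mcm3 at chr1:20820313-20820432 (minus strand) holds 3 CCAAT boxes, its E2F letters lying after the start. The class difference in CHR and E2F letters is thus seen in 3 of these 6 windows. For Cdk1 it is seen in this window only, as E2F letters lie further upstream in its promoter. In mitosis genes also called but not printed here, the Mki67 window holds 2 CHR and 1 match of E2F letters. The Cenpe window holds 1 CCAAT box and neither CHR nor E2F letters. A match is a match of letters and shows no binding, and no match says only that these letters are not in this window.

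**Figure D3:**
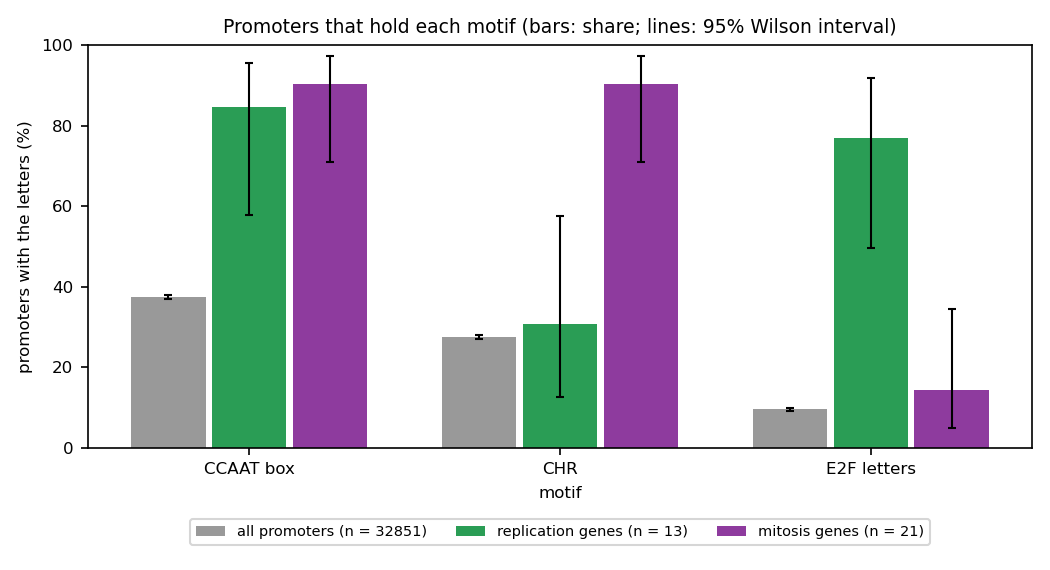
Share of promoters (percent, y axis) that hold each motif (x axis) among all promoters and those of replication and mitosis genes, with 95% Wilson intervals, which cover counting error only. CHR letters stand in 90.5% of mitosis promoters and 30.8% of replication promoters, and E2F letters in 14.3% and 76.9%.

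Leaving out 1 array changed how many genes passed between WT both and WT Covi-Ox. The count was 3 without WT both 2, 5 without WT both 1, and 4, 4 and 5 without WT Covi-Ox 1, 2 and 3. In the same fits 460, 528, 560, 469 and 517 of the 19937 genes were called, beside 771 in the full fit. Stmn1 and Cenpe were called in all 22 fits that left out 1 array. Top2a and Bub1b were called in 21 of them, Mcm6 in 18 and Birc5 in 17. Cdk1, Ccnb2 and Bub1 were each called in 9 of the 22. These calls were lost also without set A 1 or set A 3, which are not part of this comparison. The 3 genes called without WT both 2 were Mcm6, Cenpe and Stmn1, and the direction of no called gene turned.

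Cuprizone on plain chow gave a like direction with more spread between arrays. Of the 41 genes 35 were higher in WT cuprizone than in WT control on their means, beside 46.4% of all genes. But 1 passed, Birc5, where 0.858% of all genes rose and 0.206% fell. Birc5 was at 5.77, 5.37 and 6.60 in WT cuprizone and at 4.92 and 5.11 in WT control (difference 0.90 ± 0.21, adjusted p = 0.0383, limma, n = 3 and 2). The median difference was 0.35 for mitosis, 0.26 for replication and 0.13 for G1 genes, beside -0.02 for all genes. At an unadjusted p under 0.05 in limma 16 of the 41 genes were higher and 0 lower, beside 5.88% and 6.11% of all genes.

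A single array carried much of that difference. WT cuprizone 3 had the highest value of all 22 arrays in 15 of the 24 mitosis genes, 4 of the 12 replication genes and 2 of the 5 G1 genes. Cdca3, whose product helps trigger entry into mitosis, was at 7.07 on it against 5.37 and 5.41 on the other WT cuprizone arrays and 5.02 and 5.17 in WT control. Ccna2 was at 6.68 on it against 5.18 and 5.24, and at 5.44 and 4.82 in WT control, so without that array Ccna2 in WT cuprizone was within the control range. Tpx2, which anchors Aurora A to the spindle, was at 5.17 against 4.52 and 4.43, with controls at 4.23 and 4.00. Ckap2l went the other way, at 4.60 on WT cuprizone 3, the lowest of all arrays, against 5.49 and 5.18. This array was also the lowest in immediate-early genes, and the part of that difference in these results was not tested.

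Without WT cuprizone 3 no proliferation gene was called between WT cuprizone and WT control, where 107 of all genes were. The median differences were 0.19 for mitosis and 0.15 for replication genes. Birc5 then differed by 0.56 (adjusted p = 0.097, limma), Cdk1 by 0.13 in place of 0.63, and Top2a by 0.20 in place of 0.59. Mcm3, at 6.68, 6.51 and 6.61 in WT cuprizone and 6.24 and 6.11 in WT control, kept a difference of 0.42 in place of 0.43 (adjusted p = 0.273 and 0.0973, limma). Among the other fits without 1 array, the count was 4 without WT cuprizone 1, where 343 of all genes were called. It was 0 without WT Covi-Ox 1 or 3, WT both 2, set A 2 or any of the 3 set B arrays, where 188 to 204 were. Fits without a WT control array leave 1 array in that group and are not counted here. All groups share 1 estimate of the spread in this fit.

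Averaged over chow and Covi-Ox, cuprizone raised 11 of the 41 genes in WT microglia, where 3.73% of all genes rose and 2.79% fell. They were 9 mitosis genes (Birc5, Ccna2, Ccnb2, Cdk1, Cenpe, Mki67, Stmn1, Top2a and Tpx2) and 2 helicase subunits (Mcm3 and Mcm6), and none fell. The difference was 0.81 ± 0.14 for Birc5 (adjusted p = 0.000984, limma), 0.78 ± 0.13 for Stmn1 (adjusted p = 0.000542) and 0.56 ± 0.11 for Mcm6 (adjusted p = 0.00408), over 6 arrays with cuprizone and 5 without. Mki67 rose by 0.37 ± 0.10 (adjusted p = 0.0269, limma), or 1.29-fold, and all 6 WT arrays with cuprizone were above all 5 without. The same held for Top2a, Birc5, Ccnb2, Stmn1 and Mcm6, so that for 5 of 24 mitosis and 1 of 12 replication genes these arrays did not overlap, beside 2.99% of all genes. For Top2a this holds for the brighter probe set, since the second one was at 4.77 and 3.55 on WT cuprizone 2 and 3, below the WT Covi-Ox arrays. All 24 mitosis and all 12 replication genes had a difference above 0, with medians of 0.39 and 0.20, beside 44.4% of all genes above 0.

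The count of 11 was 7 without WT cuprizone 3, 7 without WT both 2 and 17 without WT cuprizone 2. In these fits 908, 981 and 1529 of the 19937 genes were called, beside 744 higher and 556 lower in the full fit. Birc5, Ccnb2, Mcm6, Stmn1 and Top2a were called in every fit that left out 1 array, but with the mean of both Top2a probe sets its difference was 0.28 and was not called (adjusted p = 0.153, limma). Without WT cuprizone 3 the 7 genes called were Mcm6, Top2a, Birc5, Ccnb2, Cdk1, Cenpe and Stmn1, and the median difference was 0.31 for mitosis genes.

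**Figure D4:**
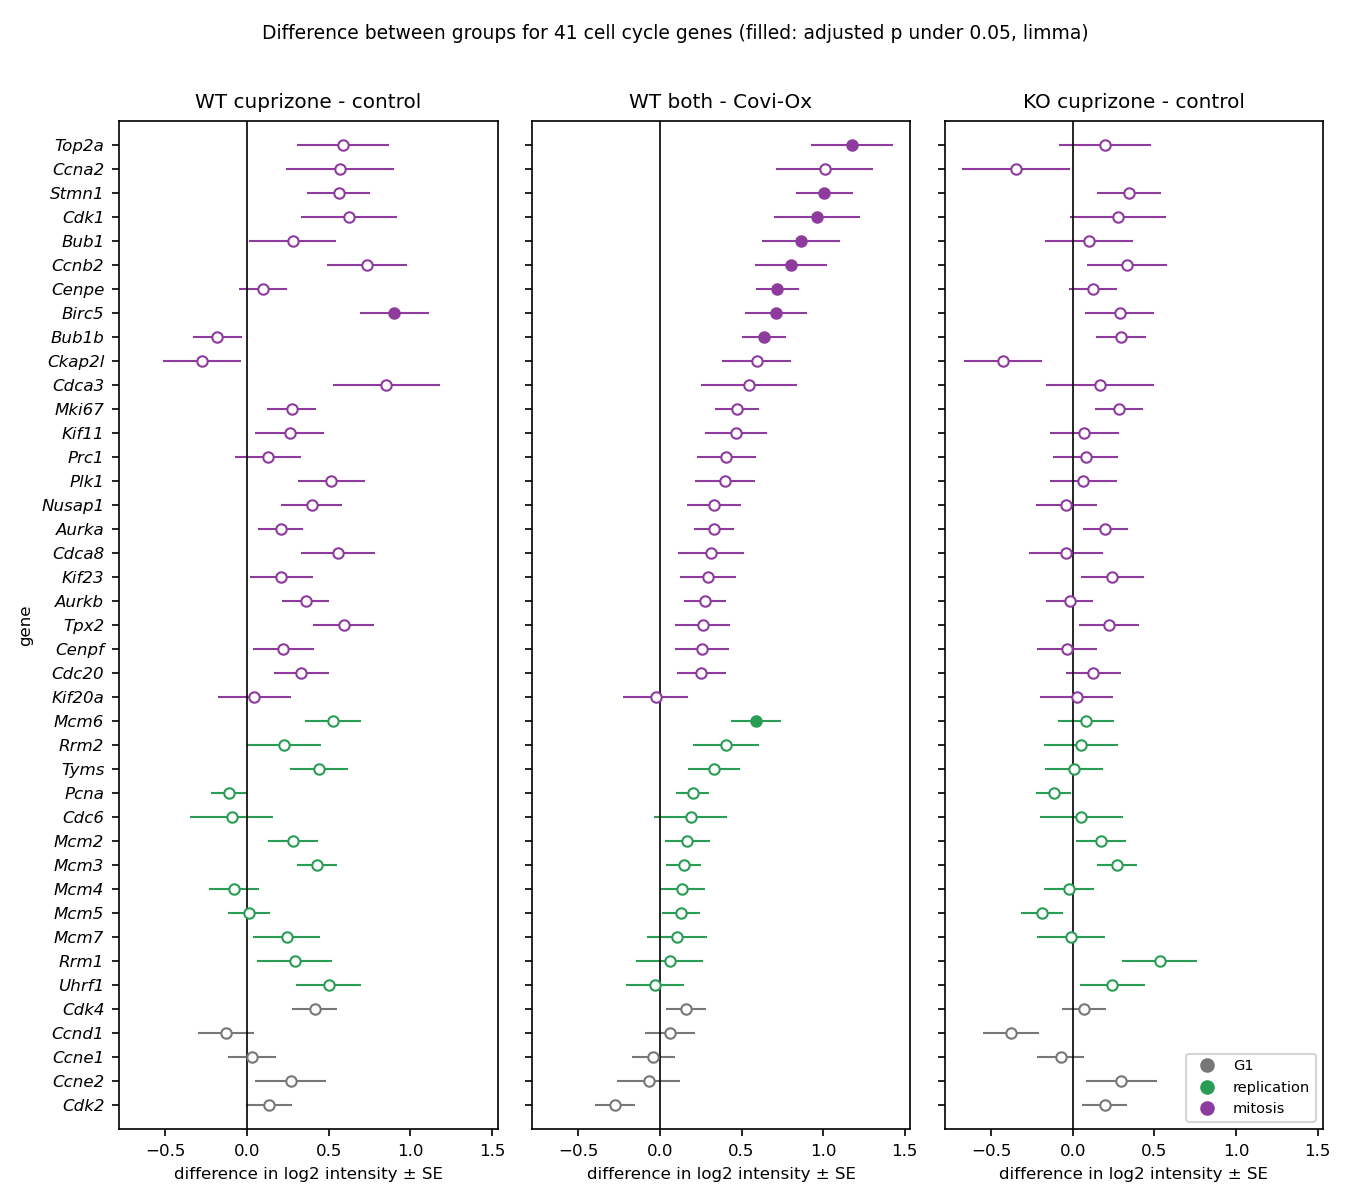
Difference between groups (log2, x axis; lines are the SE) for each of the 41 genes (y axis) in WT cuprizone against WT control, WT both against WT Covi-Ox, and KO cuprizone against KO control. Filled points passed an adjusted p under 0.05 in limma: 1 gene in the first panel, 9 in the second and 0 in the third.

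Covi-Ox itself was compared in 3 ways, and no proliferation gene passed in any with all arrays. For WT Covi-Ox against WT control 0.0201% of all genes were called, and the medians were -0.02 for mitosis and -0.13 for replication genes. On all 3 Covi-Ox arrays 8 genes (Stmn1, Top2a, Prc1, Pcna, Bub1b, Mcm6, Mki67 and Kif20a) were below both controls and Mcm3 was above both, beside 12.8% and 12% of all genes. For WT both against WT cuprizone 0.0451% of all genes were called, and the medians were 0.03 and -0.09. Ckap2l came closest there, at 6.12, 6.39 and 6.05 against 5.49, 5.18 and 4.60 (difference 1.10 ± 0.21, adjusted p = 0.0553, limma). Bub1b was next among mitosis genes, higher by 0.60 ± 0.14 (adjusted p = 0.136), and Cdk2 was lower by 0.44 ± 0.12 (adjusted p = 0.299). Without WT cuprizone 3 this comparison called Cdk1, higher in WT both, where 84 of all genes were called. The test of whether the cuprizone effect differed with and without Covi-Ox called 0.015% of all genes and no member. At an unadjusted p under 0.05 in limma 4 members were higher and 1 lower in it, beside 2.7% and 2.91% of all genes, with a median over mitosis genes of 0.10. That median was 0.29 without WT cuprizone 3.

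In KO microglia no proliferation gene passed between KO cuprizone and KO control, where 0% of all genes were called. At an unadjusted p under 0.05 in limma 2 replication genes were higher and Ccnd1 was lower, beside 4.9% and 5.99% of all genes. The mitosis genes had a median difference of 0.13 and the replication genes of 0.05. Without overlap of groups 10 genes were higher in KO cuprizone (7 of 24 mitosis, 2 of 12 replication and 1 of 5 G1 genes) and Ccnd1 was lower, beside 9.1% and 11.4% of all genes. The 7 mitosis genes were Aurka, Birc5, Bub1b, Ccnb2, Cdk1, Cenpe and Mki67, by 0.12 (Cenpe) to 0.33 (Ccnb2). Rrm1, the large subunit of ribonucleotide reductase, differed most among those higher, by 0.53 ± 0.23 (adjusted p = 0.399, limma), with 6.13, 5.96 and 6.46 against 6.22 and 5.09. These overlapped, and KO control 2 had the lowest Rrm1 of all 22 arrays. Stmn1 was at 8.09, 7.77 and 7.60 against 7.67 and 7.28 (difference 0.34 ± 0.19, adjusted p = 0.544), and these groups overlapped. Ckap2l was at 5.70, 4.93 and 5.02 against 5.49 and 5.79, a difference of -0.43 ± 0.24 (adjusted p = 0.537, limma).

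Ccnd1, the D-type cyclin through which growth factors start the cycle, was at 9.17, 9.21 and 9.12 in KO cuprizone and 9.23 and 9.85 in KO control. The groups did not overlap, and it was lower by 0.38 ± 0.17 without passing (adjusted p = 0.425, limma). WT microglia had 9.30, 9.14 and 9.48 with cuprizone, 9.31 and 9.56 in control, 9.32, 8.90 and 8.86 with Covi-Ox and 9.28, 9.09 and 8.91 with both. Ccnd1 was thus high in every group, and no comparison called it.

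The genotypes were compared directly in the difference between their cuprizone effects, KO minus WT. No proliferation gene passed, where 0.125% of all genes did. The medians were -0.24 for mitosis and -0.17 for replication genes, beside -0.00 for all genes, and 32 of the 41 genes had a smaller difference in KO. These genes share the same arrays, so their directions are not independent. The SE of this difference had a median of 0.27 over the 41 genes. At an unadjusted p under 0.05 in limma 1 gene was higher and 0 lower, beside 3.88% and 4.41% of all genes. It was Bub1b, whose difference was larger in KO by 0.48 ± 0.21 (adjusted p = 0.56, limma). Cdk1 differed by -0.35, Top2a by -0.39 (0.29 with the mean of its probe sets), Birc5 by -0.61 and Stmn1 by -0.22, with adjusted p between 0.613 and 0.889 (limma). Without WT cuprizone 3 the median over mitosis genes was -0.06, and Top2a differed by 0.00 and Cdk1 by 0.15. A difference between genotypes in the cuprizone response was thus not detectable for these genes with these arrays.

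On cuprizone KO microglia had less Mcm6 and Cdk4 than WT, 2 of the 41 genes where 1.4% of all genes were lower. Mcm6 was at 6.16, 5.72 and 5.78 in KO cuprizone against 6.22, 6.58 and 6.88 in WT cuprizone (difference -0.67 ± 0.15, adjusted p = 0.0237, limma). Cdk4, the partner of D-type cyclins, was at 8.09, 8.23 and 7.88 against 8.61, 8.35 and 8.66 (difference -0.47 ± 0.12, adjusted p = 0.0477). Neither pair of groups overlapped, although the nearest Mcm6 values, 6.16 and 6.22, lay close together. All 12 replication genes were lower in KO on their means, with a median of -0.19, and the mitosis median was also -0.19. As these genes share the same arrays, their directions are not independent. Without WT cuprizone 3 neither gene was called (adjusted p = 0.13 for Mcm6 and 0.17 for Cdk4, limma) and the mitosis median was 0.02. Without KO cuprizone 3 the count was also 0. In these 2 fits 231 and 178 of all genes were called in either direction. Over the 22 fits that left out 1 array Mcm6 was called in 18 and Cdk4 in 6. Mcm6 was also lost without WT cuprizone 2 or KO cuprizone 2, and Cdk4 without WT cuprizone 1, KO cuprizone 1 or any single array of WT Covi-Ox, WT both, set A or set B. Cdk4 was not called with quantile normalization (adjusted p = 0.158, limma) or array weights (adjusted p = 0.094).

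Averaged over the 4 diets, whichever way sets A and B are read, no proliferation gene was called between KO and WT, where 3.35% of all genes were. The mitosis median was -0.00 and the replication median -0.09. In the controls alone, where 0.0502% of all genes were called, no member differed at an adjusted p under 0.05, and the mitosis and replication medians were 0.11 and -0.11 in KO control against WT control. Against KO control no member passed in set A or set B, where 0.0201% and 0.306% of all genes were called. The replication median was 0.05 in set A and 0.21 in set B, and the mitosis median was 0.07 and 0.10. Cdk1 was at 5.25, 5.33 and 5.38 in set A and 5.38, 5.89 and 5.48 in set B, all but 1 value below the lowest WT both array. Birc5 was at 5.38, 5.16 and 5.17 in set A and 5.30, 5.21 and 5.20 in set B, all below the lowest WT both array, and the sets were not tested against WT both.

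Other cell cycle genes were read from wider lists. Among 31 other mitosis genes 2 rose and 1 fell between WT both and WT Covi-Ox, where 2.45% of all genes rose and 1.42% fell. Ube2c, the ubiquitin-conjugating enzyme of the anaphase-promoting complex, rose by 0.70 ± 0.17 (adjusted p = 0.0213, limma), and Hmmr, a spindle assembly protein, by 0.76 ± 0.19 (adjusted p = 0.0268). Ncaph, a condensin subunit, fell by 0.63 (adjusted p = 0.00387, limma). In the averaged WT cuprizone effect 6 of the 31 rose and Ncaph fell, where 3.73% of all genes rose and 2.79% fell. The 6 were Ckap2, Kif2c and the kinetochore genes Ndc80 and Nuf2 beside Ube2c and Hmmr. Without WT cuprizone 3 Ube2c (adjusted p = 0.0165, limma) and Ndc80 (adjusted p = 0.0246) were still called, and Hmmr (0.0538), Kif2c (0.0658), Nuf2 (0.0731) and Ckap2 (0.144) were not. The median of this list was 0.16. Among 30 other replication genes none rose in this averaged effect, where 3.73% of all genes rose and 2.79% fell. Rpa3, a subunit of the single-strand binding protein, fell by 0.43 (adjusted p = 0.0314, limma), and the list median was 0.13.

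Of 14 cell cycle transcription factors and other G1 genes, such as the E2f family, Foxm1, Myc, Ccnd2 and Cdk6, the averaged effect called E2f8 alone. In that effect 3.73% of all genes rose and 2.79% fell. E2f8, an atypical E2F that represses late in S phase, rose by 0.56 ± 0.11 (adjusted p = 0.00336, limma), and the list median was 0.09. Of 11 measured brakes, which include inhibitors of cyclin-dependent kinases and the retinoblastoma family, Cdkn2d alone was called in the averaged effect. It rose by 0.27 ± 0.08 (adjusted p = 0.0377, limma). Cdkn2d was also lower by 0.42 in KO cuprizone than in WT cuprizone (adjusted p = 0.0374), where 1.4% of all genes were lower. Neither Cdkn2d call held without WT cuprizone 3 (adjusted p = 0.0983 and 0.142, limma). The list median was -0.06. In KO cuprizone against KO control none of these 4 lists had a called gene. Also from the wider lists, Ube2c (-0.68, adjusted p = 0.0433, limma) and Gmnn (-0.54, adjusted p = 0.0457) were lower in KO cuprizone than in WT cuprizone. They were called in 7 and 8 of the 22 fits that left out 1 array, and not without WT cuprizone 3.

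Csf1 and Igf1, from a list of microglial growth signals, differed more than any of the 41 genes in WT cuprizone against control, WT both against WT Covi-Ox and the averaged effect. Csf1, the ligand of the receptor on which microglia depend, was at 9.56, 9.68 and 9.71 in WT cuprizone and 7.43 and 7.57 in WT control, a rise of 2.15 ± 0.22 (4.44-fold, adjusted p = 1.01e-05, limma). In KO it was at 8.07, 7.40 and 7.11 with cuprizone and 6.91 and 7.53 in control, groups that overlapped. Csf1 was at 7.51, 7.44 and 7.23 in set A and 8.22, 8.83 and 8.41 in set B. In set B it was higher than in KO control by 1.26 (adjusted p = 0.0225, limma). That call was kept in 19 of the 22 fits that left out 1 array. Igf1, insulin-like growth factor 1, was at 7.02, 7.06 and 8.12 in WT cuprizone and 5.90 and 5.58 in WT control, a rise of 1.66 ± 0.23 (adjusted p = 0.00046). Igf1 stayed between 5.51 and 6.03 in KO cuprizone. Both are among the 10 measured genes of that list. In the averaged WT effect 4 of the 10 rose (Csf1, Igf1, Csf2ra and Csf2rb) and 2 fell (Csf1r and Tgfbr1), beside 3.73% and 2.79% of all genes. The fall of Csf1r, the Csf1 receptor, was 0.23 on the log2 scale (adjusted p = 0.0228, limma), and without WT cuprizone 3 neither Csf1r (adjusted p = 0.0624) nor Tgfbr1 (adjusted p = 0.0893) was called.

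Markers of other cells moved with the same diets. Between WT both and WT Covi-Ox, where 2.45% of all genes rose and 1.42% fell, 7 of 9 microglial markers fell, with a list median of -0.41. Of 6 border macrophage markers 3 fell, with a median of -0.78. Of 4 monocyte markers none was called, with a median of 0.47. At an unadjusted p under 0.05 in limma 2 of the 4 were higher, beside 1399 of 19937 genes. Of 7 neutrophil markers 2 rose, S100a8 by 2.66 ± 0.61 (adjusted p = 0.0135, limma), from 4.76, 4.57 and 3.87 to 6.96, 7.48 and 6.76, and their array means ran from 4.27 to 7.30 over all arrays. Of 5 oligodendrocyte-lineage markers Cspg4, below the array median on its mean, rose by 0.91 ± 0.18 (adjusted p = 0.00459), and Mbp, the one above the median, differed by -0.03 (adjusted p = 0.966). In the averaged WT effect, where 3.73% of all genes rose and 2.79% fell, 6 of 9 microglial markers fell. None of the 7 neutrophil markers was called in it (0 at an unadjusted p under 0.05 in limma). On plain chow all 7 neutrophil markers were lower in WT cuprizone than in WT control on their means, with a median of -0.84 and none called. The monocyte list had medians of 0.05 in the averaged effect and -0.12 on plain chow, with none called. WT Covi-Ox differed from WT control by -5.99 in S100a8 (adjusted p = 0.000277, limma) and by -5.24 in S100a9 (adjusted p = 0.00156). The T and NK cell markers had array means of 4.33 to 4.61, and Klrb1c, itself below the median on its mean, rose by 0.71 ± 0.19 between WT both and WT Covi-Ox (adjusted p = 0.0373, limma) and by 0.75 ± 0.14 in the averaged effect (adjusted p = 0.00189). The part of these cells in the proliferation genes was not tested.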

How the data were processed

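Gene expression of sorted microglia was measured on 22 arrays. The authors deposited a linear intensity for each probe set, made with RMA per the submitters' processing notes, which name no version. Of 28098 probe sets 21640 carry 1 gene symbol and 1321 several in the platform's probe table; the rest and those with several were left out, and the brightest probe set stood for each of 19937 genes, with no filter on dim ones. Log2 was taken, and 1 model of the 8 group means of all 22 arrays (14 residual degrees of freedom, prior 6.57) was fitted with limma 3.58.1 in R 4.3.3. From it 14 contrasts were taken, with two-sided tests and Benjamini-Hochberg adjustment over all genes. A missing value occurs in 1 gene, whose fit leaves those arrays out. Errors are standard errors, and the number of arrays limits the precision. The workflow was tested on simulated data.

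The 42 genes, their classes, the wider lists, the marker and immediate-early lists and the tests were chosen with earlier results of these data known. Values on every array are given for genes called in any comparison, for Mki67 and Top2a, and for the 6 with the largest difference in each of the comparisons of cuprizone in WT, in WT on Covi-Ox and in KO; for called genes of each wider list, up to 4 by size. Promoters were matched by symbol to RefSeq (GRCm38.p6); the labels name no build. Replicate numbers did not pair samples. Alternatives were quantile normalization, centring on the array median, filters on low values, an offset, the mean of all probe sets, array weights, the trend and robust options of limma, only the arrays compared, the replicate number as a block, leaving out arrays, and a shorter promoter window.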

Additional observations from a re-analysis of the deposited data

Results flagged for a closer look

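Single arrays were not tested as outliers of their group, since no group had more than 3. In 2 genes of the wider lists the cuprizone effect differed between the genotypes by the test of that difference. Csf1 differed by -1.85 ± 0.32 (log2, KO minus WT; adjusted p = 0.0186, limma) and Igf1 by -1.78 ± 0.32 (adjusted p = 0.0288, limma). Both rose on all 3 WT cuprizone arrays over both WT control arrays, and without WT cuprizone 3 both were still called (Csf1 -1.82, adjusted p = 0.0305; Igf1 -1.42, adjusted p = 0.00501, limma). The Csf1 call was lost when WT control 1, WT control 2, KO control 2 or KO cuprizone 2 was left out (-1.53 to -1.91, adjusted p up to 0.156). The Igf1 call was lost without each of these arrays and without KO cuprizone 3 (-1.62 to -1.94, adjusted p up to 0.19), and with 16 added before log2 or array weights. With only the arrays compared adjusted p was 0.338 for Csf1 and 0.583 for Igf1. Without the 3 arrays low in immediate-early genes the differences were -1.28 (adjusted p = 0.235) and -1.08 (adjusted p = 0.0842). No proliferation gene passed this test.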

How the results depend on the processing

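No gene followed here turned its direction past the threshold. The class medians were not tested and had no such threshold, and some changed sign. Those of the genotype difference, negative with all arrays, were above 0 without the 3 arrays low in immediate-early genes. So was the mitosis median of KO against WT on cuprizone. For WT cuprizone against control all-gene calls were 380 with a filter at the 75th percentile and 14 with only the arrays compared. The count of proliferation genes called between WT cuprizone and WT control was 0 with a filter at the 75th percentile (4 genes left), with 16 added before log2, with only the arrays compared and without the 3 arrays low in immediate-early genes. Without those 3 arrays its medians were 0.15 (replication) and 0.19 (mitosis). Between WT both and WT Covi-Ox the count was 1 at the 75th percentile and 5 with 16 added, which also gave a mitosis median of 0.28. The averaged WT effect counted 2 at the 75th percentile, 6 with only the arrays compared and 7 without the 3 arrays, and its mitosis median was 0.23 with 16 added. For the Covi-Ox difference the replication median was 0.0644 with array weights, and without the 3 arrays the medians were 0.0909 (replication) and 0.29 (mitosis). WT both against WT cuprizone called 1 gene with a filter at the 50th percentile or array weights and 2 without the 3 arrays. Without them KO cuprizone against KO control had medians of 0.17 (replication) and 0.28 (mitosis), the genotype difference 0.0509 and 0.0698, and KO against WT on cuprizone a count of 0 and a mitosis median of 0.15. That count was 1 at the 75th percentile or with array weights and 0 with only the arrays compared. KO against WT over the diets called 2 genes at the 50th percentile or with centring. It called 1 at the 75th percentile, with 16 added or with trend and robust options, and all of these were lower in KO. Without the 3 arrays it called 1 gene, which was higher in KO. Set B against KO control had a replication median of 0.13 with 16 added. CHR letters fell to 7.69% (replication) and 52.4% (mitosis) in the shorter window, and to 20% over all promoters.

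With the replicate number as a block the counts were 0 for WT cuprizone against control, 7 for WT both against WT Covi-Ox, 9 for the averaged effect, 1 for WT both against WT cuprizone and 1 for KO against WT on cuprizone. The number pairs no samples: over 71 same-numbered pairs the deviations correlated with a median of -0.0016 (-0.16 to 0.19), and over 140 other pairs with 0.0007.

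Leaving out 1 array gave counts of 0 to 4 (WT cuprizone against control), 3 to 11 (WT both against WT Covi-Ox) and 7 to 17 (averaged). At these lowest and highest counts 107 and 343, 460 and 1008, and 908 and 1529 of all genes were called. Counts were 0 to 1 (WT both against WT cuprizone), 0 to 2 (KO against WT on cuprizone) and 0 to 2 (over diets). They were 0 for KO cuprizone against control, KO against WT control, set A and set B. Fits that left a control group with 1 array are not counted here. Where medians moved, they ran from 0.15 to 0.36 (replication) and 0.19 to 0.42 (mitosis) for WT cuprizone, -0.0993 to 0.0909 and 0.0322 to 0.2936 for the Covi-Ox difference, -0.2141 to -0.0522 for replication in WT Covi-Ox against control, -0.0026 to 0.1418 for replication in KO cuprizone, -0.3828 to -0.0603 for mitosis in the genotype difference, -0.27 to -0.14 and -0.3223 to 0.0164 for KO against WT on cuprizone, and 0.11 to 0.24 for replication in set B. The cause was not tested. Dim probe sets and 2 or 3 arrays a group limit what could be called.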
